A study of Homo sapiens and Mus musculus with 18 samples.

Results

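The genes described here are the enzymes that place, maintain and remove methyl groups on cytosine in DNA, with 2 proteins that guide them. They are 9 genes, taken by name, although the choice was made with earlier results of these data known. The set holds the methyltransferases DNMT1, DNMT3A and DNMT3B, the cofactor DNMT3L and the DNMT1 recruiter UHRF1. It also holds the dioxygenases TET1, TET2 and TET3, and the glycosylase TDG. All 9 were found among the 44910 human genes counted, and their 9 mouse counterparts among the 29720 mouse genes counted. RNA was measured by poly(A) RNA-seq in 18 samples, 10 human in 5 groups and 8 mouse in 4 groups, with 2 replicates in each of the 9 groups.

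The human groups were ESCs of the H9 line in the naive and in the primed state, primed RUES2-GLR ESCs, early RA-gastruloids taken at 24 h and late RA-gastruloids taken at 120 h. H9 and RUES2-GLR are established human embryonic stem cell lines, and both kinds of RA-gastruloid (aggregates of stem cells that elongate and pattern along an axis, here treated with retinoic acid) were grown from RUES2-GLR cells. Naive H9 ESCs had been chemically reset and were kept in PXGL, a mixture of inhibitors with the cytokine LIF, on mouse embryonic fibroblast feeders before feeder-free passages, whereas primed cells were grown in StemFlex on Geltrex. The mouse groups, all from the E14Tg2a line, were naive ESCs kept in 2i + LIF (CHIR99021 and PD0325901 with LIF), EpiLCs (epiblast-like cells made from naive ESCs with activin A and bFGF), early gastruloids and late gastruloids. Mouse gastruloids were started from naive ESCs and not from EpiLCs, so EpiLCs are not their direct source. Apart from human primed cells, each stage is represented by 1 line, and the naive and gastruloid stages of the human series come from different lines, so stage and line cannot be told apart between them. Gastruloids are mixtures of cell types, and in such bulk RNA fewer cells of a type and less RNA per cell cannot be told apart.

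Most methylated cytosines in mammals lie next to guanine, in CpG. DNMT3A and DNMT3B methylate CpGs that carry no mark (de novo methylation), and DNMT3L, which has no catalytic activity of its own, binds and stimulates them. After DNA replication, UHRF1 recognises the hemimethylated duplex and brings DNMT1, which copies the mark to the new strand. TET enzymes oxidise 5-methylcytosine to 5-hydroxymethylcytosine and further forms, and TDG cuts out the most oxidised forms so that base excision repair restores cytosine. Naive pluripotent cells are known for genomes with little methylation, and the methylation rises as cells pass to the primed state. Methylation itself was not measured here, and every value is an RNA level.

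Libraries held between 3681739 (primed RUES2-GLR, replicate 2) and 38771193 (primed H9, replicate 2) counts, and replicates correlated at r = 0.98 to 0.995 in log expression across genes. In the RUES2-GLR ESC libraries 21.4% and 22.4% of counts were mitochondrial, against 2.68% to 6.71% in the other human libraries and 1.64% to 3.65% in mouse. The summed level of 7 human naive markers was 9142 to 9338 TPM (counts per exon length, scaled to the same total in every sample) in naive H9 ESCs and 7.96 to 22.1 TPM in the primed lines. The 7 mouse naive markers summed to 3398 to 3404 TPM in naive ESCs, 132 to 134 TPM in EpiLCs, 1660 to 1702 TPM in early gastruloids and 161 to 173 TPM in late gastruloids. The 7 fibroblast markers summed to 257 to 264 TPM in naive H9 ESCs, with all 7 above 1 CPM, and to 129 to 135 TPM in primed H9 ESCs, where 2 of the 7 (DCN and LUM) were at 0 in both libraries. The sum was 129 to 139 TPM in primed RUES2-GLR ESCs, 399 to 424 TPM in early RA-gastruloids (the highest human values) and 243 to 275 TPM in late RA-gastruloids. TPM is scaled over all genes, mitochondrial ones included, so the high mitochondrial share lowers the TPM of other genes in RUES2-GLR ESCs. For example, DNMT1 was at 158 CPM and 22.2 TPM there, and at 318 CPM and 90.4 TPM in primed H9 ESCs. In mouse the sum of the 7 genes was 220 to 233 TPM in late gastruloids and 0.948 to 4.42 TPM in the other groups. The part of feeder or mesenchymal RNA in the members' values was not tested.

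TET1 fell and TET3 rose between early and late gastruloids in both species, and the human promoters of this pair differ in their content of CpG, the sequence that the enzymes act on. RefSeq windows of 250 bases before the gene start (build GRCh38.p14, plus strand for both genes) are shown with each CpG in capitals, at chr10:68560087-68560336 for TET1 and chr2:73984660-73984909 for TET3.
TET1: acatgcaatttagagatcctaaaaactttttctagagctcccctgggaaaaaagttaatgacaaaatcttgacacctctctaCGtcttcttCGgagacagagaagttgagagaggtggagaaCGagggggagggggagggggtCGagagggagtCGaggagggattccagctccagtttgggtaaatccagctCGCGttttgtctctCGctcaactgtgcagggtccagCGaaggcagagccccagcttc
TET3: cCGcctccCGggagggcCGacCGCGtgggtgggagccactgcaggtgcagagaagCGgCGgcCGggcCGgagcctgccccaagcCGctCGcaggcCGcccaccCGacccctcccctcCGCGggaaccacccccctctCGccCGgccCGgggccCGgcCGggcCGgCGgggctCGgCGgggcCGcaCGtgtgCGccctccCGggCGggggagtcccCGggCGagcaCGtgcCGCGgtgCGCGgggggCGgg
The TET1 window held 9 CpGs at a GC content of 51.6%, and the TET3 window 37 CpGs at 84%. Among 35116 such RefSeq windows the median was 11 CpGs, 54.1% held at least 9 and 4.00% held at least 37. A window at the start of the canonical transcript was found for 7 members, and in the others of these it held 21 CpGs (DNMT1), 33 (DNMT3A), 28 (UHRF1), 34 (TET2) and 22 (TDG), which 30.2%, 8.15%, 15.9%, 6.84% and 28.0% of all windows reached. The windows of DNMT1, UHRF1, TET2 and TDG hold bases of an annotated exon, unlike those of TET1, TET3 and DNMT3A, and the TET2 sequence is not shown for that reason. The counts describe the letters only, since no methylation or binding was measured at these sites. Whether CpG content bears on the changes of TET1 and TET3 was not tested.

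Levels of a gene across samples are given as CPM (counts scaled to library size after TMM normalization), replicate 1 then replicate 2. A gene is called higher or lower, or said to have risen or fallen, when the edgeR quasi-likelihood test gave an adjusted p (Benjamini-Hochberg, across all genes tested) under 0.05 and a log2 fold change beyond 1 in either direction. Of the genes counted, 18300 human and 15003 mouse genes passed the filter on low counts, among them all 9 members in each species, although human DNMT3L passed through naive H9 ESCs alone and so could only be found lower elsewhere. Per the methods the 2 replicates of each stage were collected in the same batch, so p-values measure only the spread between such duplicates. The paper's reporting summary places all gastruloid samples in the same batch, and does not say whether the ESC and EpiLC groups shared it. Where groups did not share a batch, batch and stage cannot be told apart.

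**Figure D1:**
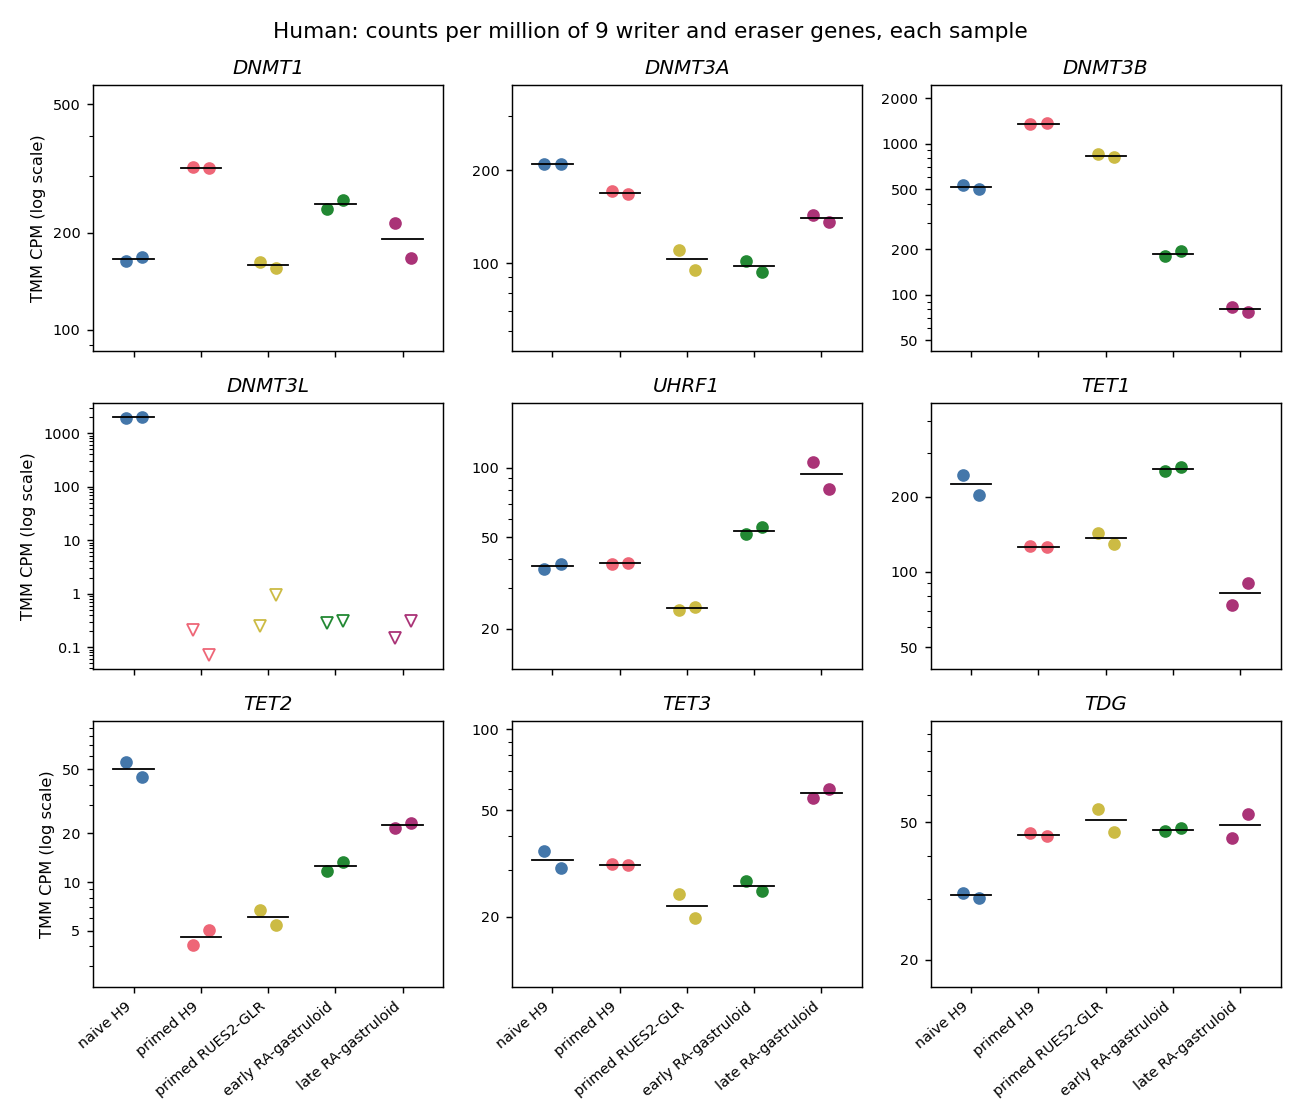
Level of each of the 9 genes (CPM after TMM, log axis) in the 10 human samples by group. Points are samples, black lines the mean of 2, and open triangles samples with 3 counts or fewer, drawn at the level of 3 counts. DNMT3L stands at 1894 and 2045 CPM in naive H9 ESCs and at the count floor elsewhere, and DNMT3B descends from primed ESCs to late RA-gastruloids.

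**Figure D2:**
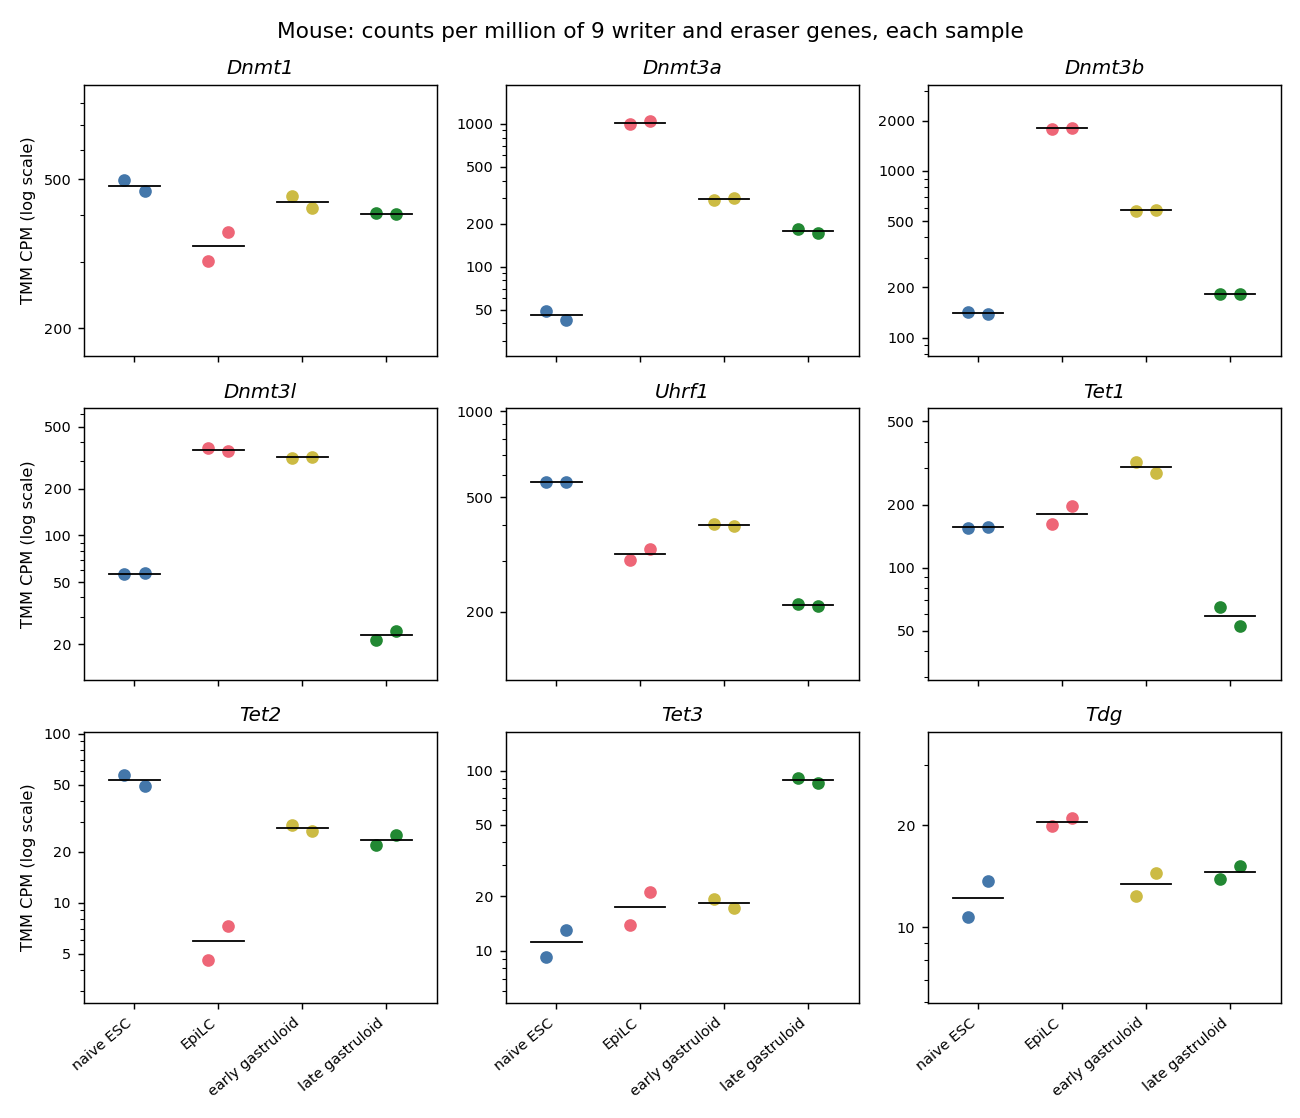
Level of each of the 9 genes (CPM after TMM, log axis) in the 8 mouse samples by group, drawn as for human. Dnmt3a, Dnmt3b and Dnmt3l peak in EpiLCs, Tet2 is lowest there, and Tet3 is highest in late gastruloids.

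Maintenance of methylation rests on DNMT1 and UHRF1, and neither was called different between naive and primed cells in either species. DNMT1 (ENSG00000130816, GRCh38 chr19:10133342-10231286) was at 163 and 169 CPM in naive H9 ESCs, 319 and 318 in primed H9 cells, 162 and 155 in primed RUES2-GLR ESCs, 237 and 252 in early RA-gastruloids and 215 and 167 in late RA-gastruloids. Both primed H9 samples were the highest and stood apart from all others. Between primed and naive H9 ESCs the difference was 1.92-fold (log2 fold change 0.94, SE 0.11, edgeR adjusted p = 4.2e-09), which passed the p but not the fold limit. DNMT1 was lower in primed RUES2-GLR than in primed H9 ESCs (log2 fold change -1.003, SE 0.11, edgeR adjusted p = 5.0e-09), a value at the fold limit itself and lost in 6 of the alternatives tried (-0.99 to -0.81) and without either RUES2-GLR replicate (-0.90 and -0.88), and these are the libraries with the high mitochondrial share. In early RA-gastruloids against RUES2-GLR ESCs the value was 0.62 on the log2 scale (edgeR adjusted p = 2.0e-05), within the fold limit. A stretch of 83 bases of DNMT1 exon overlaps S1PR2 on the same strand.

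Mouse Dnmt1 (ENSMUSG00000004099, GRCm39 chr9:20817945-20871184) was at 496 and 465 CPM in naive ESCs, 303 and 361 in EpiLCs, 451 and 419.7 in early gastruloids and 406 and 403 in late gastruloids. The EpiLC samples were the lowest and did not overlap with the others. From naive ESCs to EpiLCs the change was -0.52 (edgeR adjusted p = 3.8e-12), opposite in sign to the human step, and no mouse comparison passed the fold limit.

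UHRF1 (ENSG00000276043, chr19:4903080-4962154) was at 36.3 and 38.4 CPM in naive and 38.3 and 38.6 CPM in primed ESCs of the H9 line, with overlapping values. It was at 24.2 and 24.9 in primed RUES2-GLR ESCs, 51.7 and 55.1 in early RA-gastruloids and 107 and 81.1 in late RA-gastruloids. The groups of this second line did not overlap. UHRF1 rose from RUES2-GLR ESCs to early RA-gastruloids (log2 fold change 1.13, SE 0.14, edgeR adjusted p = 5.6e-08), and in late RA-gastruloids it was 3.83-fold above RUES2-GLR ESCs (log2 fold change 1.95, SE 0.14, edgeR adjusted p = 1.6e-13).

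In mouse the gene was lower, not higher, late in the series. Uhrf1 (ENSMUSG00000001228, chr17:56610275-56630489) was highest in naive ESCs at 567 and 565 CPM, then 403 and 399 in early gastruloids, 303 and 330.4 in EpiLCs and 214 and 209 in late gastruloids. The 4 groups did not overlap in any pair. Uhrf1 was lower in late gastruloids than in naive ESCs (log2 fold change -1.42, SE 0.05, edgeR adjusted p = 4.8e-32), and the steps between neighbouring stages were within the fold limit, the largest at -0.92 from early to late gastruloids (edgeR adjusted p = 2.4e-23), which came to -1.01 with no filter on low counts and to -1.05 in the joint fit of both species. Human UHRF1, at 0.82 from early to late RA-gastruloids (edgeR adjusted p = 1.3e-06), passed the limit only without late replicate 2 (1.01).

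Among the 3 catalytic methyltransferases, the largest difference in any comparison was that of DNMT3B in human cells (late RA-gastruloids against RUES2-GLR ESCs) and of Dnmt3a in mouse (EpiLCs against naive ESCs). The order of the 3 changed with the comparison. Between the primed lines DNMT1 had the largest difference of the 3, and between early and late mouse gastruloids Dnmt3b had it. DNMT3B (ENSG00000088305, chr20:32762385-32809359) was at 534 and 499 CPM in naive H9 ESCs, 1339 and 1358 in primed H9 cells, 847 and 819 in primed RUES2-GLR ESCs, 179 and 193 in early RA-gastruloids and 83.2 and 76.6 in late RA-gastruloids. Each of these 5 groups was separate from the next. By TPM, DNMT3B ranked 125th of 29891 detected genes in primed H9 ESCs and 3323rd of 30061 in late RA-gastruloids. It rose 2.61-fold from naive to primed H9 ESCs (log2 fold change 1.38, SE 0.10, edgeR adjusted p = 6.5e-14). It then fell from RUES2-GLR ESCs to early RA-gastruloids (log2 fold change -2.16, SE 0.10, edgeR adjusted p = 1.0e-17) and again to late RA-gastruloids (log2 fold change -1.22, SE 0.10, edgeR adjusted p = 1.3e-11), so that late RA-gastruloids held 0.0959 of the RUES2-GLR level (log2 fold change -3.38, edgeR adjusted p = 2.7e-22).

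Mouse Dnmt3b (ENSMUSG00000027478, chr2:153490861-153529650) was at 142 and 139 CPM in naive ESCs, 1783 and 1822 in EpiLCs, 579 and 582 in early gastruloids and 182 and 182 in late gastruloids. In EpiLCs it ranked 77th of 23179 detected genes by TPM. The rise from naive ESCs to EpiLCs was 12.8-fold (log2 fold change 3.68, SE 0.05, edgeR adjusted p = 1.0e-51), and early gastruloids were 4.12-fold above the naive ESCs they were made from (log2 fold change 2.04, SE 0.05, edgeR adjusted p = 3.3e-39). Dnmt3b fell from early to late gastruloids (log2 fold change -1.67, SE 0.05, edgeR adjusted p = 4.1e-36), where it came to within 1.29-fold of naive ESCs (edgeR adjusted p = 1.7e-08).

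DNMT3A (ENSG00000119772, chr2:25227855-25342590) moved little in human cells. It was at 211 and 209 CPM in naive H9 ESCs, 171 and 168 in primed H9 cells, 111 and 94.9 in primed RUES2-GLR ESCs, 101 and 93.5 in early RA-gastruloids and 143 and 136 in late RA-gastruloids. No human comparison was called for DNMT3A, and the largest difference was -0.71 on the log2 scale between the primed lines (edgeR adjusted p = 1.6e-06). RUES2-GLR ESCs and early RA-gastruloids overlapped. Naive H9 ESCs were the highest of the human groups, with -0.31 from naive to primed (edgeR adjusted p = 0.0078).

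Mouse Dnmt3a (ENSMUSG00000020661, chr12:3856007-3964443) was at 48.6 and 42.4 CPM in naive ESCs, 995 and 1038 in EpiLCs, 291 and 299.8 in early gastruloids and 183 and 171 in late gastruloids. EpiLCs stood 22.4-fold above naive ESCs (log2 fold change 4.50, SE 0.06, edgeR adjusted p = 2.1e-52), the largest change of any of the mouse members in this step. Gastruloids held intermediate levels above naive ESCs, with 2.71 on the log2 scale in early (edgeR adjusted p = 7.7e-41) and 1.97 in late gastruloids (edgeR adjusted p = 3.8e-34). From early to late gastruloids the value was -0.74, within the fold limit. Both DNMT3A and Dnmt3a have 1 annotated pseudogene, and reads that map to several places were not counted.

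DNMT3L separated naive human cells from all other human samples, while mouse Dnmt3l was lowest in late gastruloids. DNMT3L (ENSG00000142182, chr21:44246339-44262216) had 36253 and 35642 counts (1894 and 2045 CPM) in naive H9 ESCs, where it ranked 30th of 31168 detected genes by TPM. It had 0 and 1 counts in primed H9 ESCs, 0 and 0 in RUES2-GLR ESCs, 2 and 0 in early RA-gastruloids and 0 and 0 in late RA-gastruloids. The 2 naive samples were high and the other 8 were at 0 to 2 counts. The ratio of naive to primed H9 ESCs was 110649 (95% interval 19859 to 4370450, from 71895 against 1 counts, counting error only). No test is given for this gene, since it passed the filter through the naive group alone. Against early RA-gastruloids, with 2 counts, the ratio was 19971 (95% interval 5528 to 164907). A floor of 3 counts over a group corresponds to 0.195 CPM in RUES2-GLR ESCs and 0.0986 CPM in late RA-gastruloids, so differences among the primed and gastruloid groups were not detectable at this depth.

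Mouse Dnmt3l (ENSMUSG00000000730, chr10:77877781-77899456) was expressed in every group, at 56.7 and 57.0 CPM in naive ESCs, 363 and 348 in EpiLCs, 314 and 319.8 in early gastruloids and 21.4 and 24.3 in late gastruloids. None of the 4 groups overlapped. It rose from naive ESCs to EpiLCs (log2 fold change 2.64, SE 0.06, edgeR adjusted p = 9.9e-41) and was nearly as high in early gastruloids (-0.16 on the log2 scale against EpiLCs, edgeR adjusted p = 0.0067). It then fell to 0.0720 of the early gastruloid level (log2 fold change -3.80, SE 0.08, edgeR adjusted p = 2.1e-45), the largest change of any mouse member between gastruloid stages, and was below naive ESCs (log2 fold change -1.32, edgeR adjusted p = 4.1e-20). A stretch of 67 bases overlaps Aire on the opposite strand, and counting was without strand.

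Among the erasers, TET1 fell and TET3 rose from early to late gastruloids in both species, and TET2 was low in primed cells. TET1 (ENSG00000138336, chr10:68560337-68694487) was at 245 and 203 CPM in naive H9 ESCs, 126 and 126 in primed H9 cells, 143 and 129.7 in primed RUES2-GLR ESCs, 253 and 263 in early RA-gastruloids and 73.8 and 90.5 in late RA-gastruloids. Naive cells and early RA-gastruloids were the high groups, and late RA-gastruloids were the lowest. TET1 fell from early to late RA-gastruloids (log2 fold change -1.66, SE 0.12, edgeR adjusted p = 2.0e-13). The difference from RUES2-GLR ESCs to early RA-gastruloids was 0.91 and the difference between primed and naive H9 ESCs was -0.83, each with an edgeR adjusted p (6.7e-08 and 9.4e-08) under the threshold but within the fold limit. Without naive replicate 2 the difference between primed and naive H9 ESCs was -1.01.

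Mouse Tet1 (ENSMUSG00000047146, chr10:62640349-62744775) was at 155 and 156 CPM in naive ESCs, 162 and 198 in EpiLCs, 320.0 and 281 in early gastruloids and 64.6 and 52.4 in late gastruloids. Early gastruloids were the highest and late gastruloids the lowest, with no overlap. Tet1 fell from early to late gastruloids to 0.195 of its level (log2 fold change -2.35, SE 0.08, edgeR adjusted p = 2.0e-34), and was also below naive ESCs (log2 fold change -1.40, SE 0.08, edgeR adjusted p = 8.1e-23). Between EpiLCs and naive ESCs it differed by 0.22 (edgeR adjusted p = 0.0048). Early gastruloids were at 0.95 on the log2 scale against naive ESCs (edgeR adjusted p = 1.9e-18), and at 1.04 without early replicate 2.

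TET2 (ENSG00000168769, chr4:105145875-105279816) was at 55.2 and 44.9 CPM in naive H9 ESCs, 4.05 and 5.05 in primed H9 cells, 6.71 and 5.42 in primed RUES2-GLR ESCs, 11.7 and 13.3 in early RA-gastruloids and 21.7 and 23.3 in late RA-gastruloids. Naive samples were the highest, both primed lines the lowest, and the groups of the gastruloid course did not overlap. TET2 fell from naive to primed H9 ESCs to 0.0910 of its level (log2 fold change -3.41, SE 0.16, edgeR adjusted p = 1.0e-18). In late RA-gastruloids it was 3.71-fold above RUES2-GLR ESCs (log2 fold change 1.81, SE 0.19, edgeR adjusted p = 1.0e-09), while each of the steps on the way was within the fold limit. The first of them, to early RA-gastruloids, was 0.97 (edgeR adjusted p = 0.00018) and passed the limit without RUES2-GLR replicate 1 (1.12) or early replicate 1 (1.08).

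Mouse Tet2 (ENSMUSG00000040943, chr3:133169436-133250900) was at 56.9 and 48.9 CPM in naive ESCs, 4.58 and 7.30 in EpiLCs, 28.6 and 26.7 in early gastruloids and 21.9 and 25.2 in late gastruloids. The naive-to-EpiLC fall (log2 fold change -3.03, SE 0.13, edgeR adjusted p = 4.9e-28) left EpiLCs the lowest group, as primed cells were in human. Early gastruloids were 4.66-fold above EpiLCs (log2 fold change 2.12, SE 0.14, edgeR adjusted p = 5.6e-20), and late gastruloids were below naive ESCs (log2 fold change -1.16, SE 0.11, edgeR adjusted p = 6.5e-14). Early gastruloids against naive ESCs were at -0.91 (edgeR adjusted p = 4.5e-12), and at -1.03 without naive replicate 2.

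TET3 (ENSG00000187605, chr2:73984910-74108176) was at 35.1 and 30.3 CPM in naive H9 ESCs, 31.4 and 31.3 in primed H9 cells, 24.2 and 19.8 in primed RUES2-GLR ESCs, 27.3 and 24.9 in early RA-gastruloids and 55.6 and 59.8 in late RA-gastruloids. The late samples were the highest, and naive and primed H9 ESCs overlapped. TET3 rose from early to late RA-gastruloids (log2 fold change 1.14, SE 0.13, edgeR adjusted p = 8.1e-09). Mouse Tet3 (ENSMUSG00000034832, chr6:83339355-83436066) was at 9.21 and 13.0 CPM in naive ESCs, 13.9 and 21.2 in EpiLCs, 19.5 and 17.2 in early gastruloids and 91.1 and 85.2 in late gastruloids. Late gastruloids stood apart from the other 3 groups, 4.80-fold above early gastruloids (log2 fold change 2.25, SE 0.10, edgeR adjusted p = 1.8e-27) and 7.93-fold above naive ESCs (log2 fold change 2.94, SE 0.12, edgeR adjusted p = 1.9e-29). From naive ESCs to EpiLCs the value was 0.70 and to early gastruloids 0.70, and without naive replicate 2 both came to 1.01. The late mouse gastruloids with high Tet3 are also those with the high sum of fibroblast markers. In human that sum was lower in late RA-gastruloids (243 to 275 TPM) than in early ones (399 to 424 TPM), while TET3 was higher. A link between the 2 was not tested.

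TDG (ENSG00000139372, chr12:103965822-103988874), the glycosylase that follows TET oxidation, was called in no comparison of either species. It was at 31.3 and 30.1 CPM in naive H9 ESCs, 46.3 and 45.4 in primed H9 cells, 54.5 and 46.8 in primed RUES2-GLR ESCs, 47.0 and 48.0 in early RA-gastruloids and 45.0 and 52.9 in late RA-gastruloids. Naive cells were the lowest, with 0.58 on the log2 scale from naive to primed H9 ESCs (edgeR adjusted p = 5.9e-05), and the primed and gastruloid groups of RUES2-GLR overlapped. Mouse Tdg (ENSMUSG00000034674, chr10:82465610-82489654) was at 10.7 and 13.6 CPM in naive ESCs, 19.8 and 20.9 in EpiLCs, 12.3 and 14.4 in early gastruloids and 13.9 and 15.2 in late gastruloids. EpiLCs were the highest, at 0.72 against naive ESCs (edgeR adjusted p = 8.2e-06). TDG overlaps another gene on its strand by 168 bases and has 1 pseudogene. Tdg overlaps Glt8d2 on the opposite strand by 367 bases and has 2 pseudogenes. Some reads of these genes can therefore be missing from the counts.

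Between 1 and 6 of the 9 members were called in each comparison, and the counts are read beside the share of all genes called, which was high throughout. From naive to primed H9 ESCs 3 of 9 members were called, 1 higher (DNMT3B) and 2 lower (DNMT3L and TET2), and 7 of 9 passed the adjusted p alone, while 47.8% of all genes tested were called and 75.3% passed the p alone. The direction of DNMT3L was set by the filter, and of the other 8 members 2 were called and 6 passed the p alone. Between the primed lines, 1 of 9 was called (DNMT1, lower in RUES2-GLR) and 5 of 9 passed the p alone, while 29.3% of all genes tested were called and 58.5% passed the p alone. Between RUES2-GLR ESCs and early RA-gastruloids 2 of 9 were called (UHRF1 higher, DNMT3B lower) and 5 passed the p alone, where 29.6% of all genes tested were called and 55.8% passed the p alone. From early to late RA-gastruloids 3 of 9 were called (TET3 higher, DNMT3B and TET1 lower) and 7 passed the p alone, where 24.9% of all genes tested were called and 52% passed the p alone. From RUES2-GLR ESCs to late RA-gastruloids 4 of 9 were called (UHRF1, TET2 and TET3 higher, DNMT3B lower) and 7 passed the p alone, where 38.3% of all genes tested were called and 63.6% passed the p alone.

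In mouse, EpiLCs differed from naive ESCs in 4 of 9 members (Dnmt3a, Dnmt3b and Dnmt3l higher, Tet2 lower) and all 9 passed the p alone, where 29.8% of all genes tested were called and 66% passed the p alone. Early gastruloids differed from naive ESCs in 3 of 9 (Dnmt3a, Dnmt3b and Dnmt3l, all higher) and 8 passed the p alone, where 23% of all genes tested were called and 63% passed the p alone. Without naive replicate 2, 5 of 9 were called there. The comparison of early gastruloids with EpiLCs had 3 of 9 called (Tet2 higher, Dnmt3a and Dnmt3b lower) and 8 by the p alone, where 20.9% of all genes tested were called and 62.7% passed the p alone. From early to late gastruloids 4 of 9 were called (Tet3 higher, Dnmt3b, Dnmt3l and Tet1 lower) and 7 passed the p alone, where 39.2% of all genes tested were called and 76.1% passed the p alone. Late gastruloids against naive ESCs had 6 of 9 called (Dnmt3a and Tet3 higher, Dnmt3l, Uhrf1, Tet1 and Tet2 lower) and 8 by the p alone, where 44.8% of all genes tested were called and 78.5% passed the p alone. The comparisons that start from the same group share its 2 samples.

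Whether a stage change differed between the species was tested as an interaction over 14007 genes that share a symbol and were tested, as the human minus the mouse log2 fold change. In the step from naive to primed cells (primed over naive H9 ESCs against EpiLCs over naive ESCs) 5 of 9 members differed, where 42.1% of all genes tested did. DNMT3A differed by -4.91 (SE 0.12, edgeR adjusted p = 1.3e-27), with -0.38 in human and 4.52 in mouse in this joint fit. DNMT3B rose in both species but by less in human, with a difference of -2.40 (SE 0.11, edgeR adjusted p = 2.6e-20). DNMT3L went in opposite directions, with a human count of 1 after the step, and its fitted difference is no measure of size, although in this fit it passed the filter through all 8 mouse samples as well. DNMT1 differed by 1.36 (SE 0.13, edgeR adjusted p = 2.7e-11) and TET1 by -1.15 (SE 0.16, edgeR adjusted p = 9.2e-08), each with opposite signs in the species and within the fold limit in each. The difference of TET1 was -0.95 without EpiLC replicate 2, and that of TET3, -0.86 (SE 0.22, edgeR adjusted p = 0.001) with all samples, was -1.19 without naive mouse replicate 2 and -1.09 without EpiLC replicate 1. TET2 fell in both, and the difference was -0.47 (SE 0.24, edgeR adjusted p = 0.081).

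In the step to early gastruloids (from RUES2-GLR ESCs in human, against EpiLCs in mouse) 2 of 9 members differed, where 32.6% of all genes did. DNMT3A differed by 1.57 (SE 0.12, edgeR adjusted p = 1.6e-13), since it fell in mouse and was at -0.19 in human, and TET2 by -1.26 (SE 0.29, edgeR adjusted p = 0.0003), with 0.88 in human and 2.14 in mouse. Without RUES2-GLR replicate 1 the TET2 difference was -1.05 and no longer passed the adjusted p, which left 1 of 9. From early to late gastruloids 3 of 9 members differed, where 35.4% of all genes did. UHRF1 differed by 1.89 (SE 0.13, edgeR adjusted p = 1.1e-14), DNMT3A by 1.41 (SE 0.12, edgeR adjusted p = 1.6e-12) and TET2 by 1.23 (SE 0.22, edgeR adjusted p = 9.2e-06), and all 3 were positive in human and negative in mouse. For TET3, which rose in both species, the difference was -0.96 (SE 0.20, edgeR adjusted p = 8.3e-05), past the p but not the size limit, which it did pass in 4 of the alternatives tried (-1.07 to -1.01) and without early human replicate 2 (-1.004), late human replicate 2 (-1.02) or early mouse replicate 1 (-1.08). For TET1 it was 0.85 (SE 0.17, edgeR adjusted p = 4.7e-05), and 1.04 without late human replicate 1 or 1.02 without late mouse replicate 1.

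**Figure D3:**
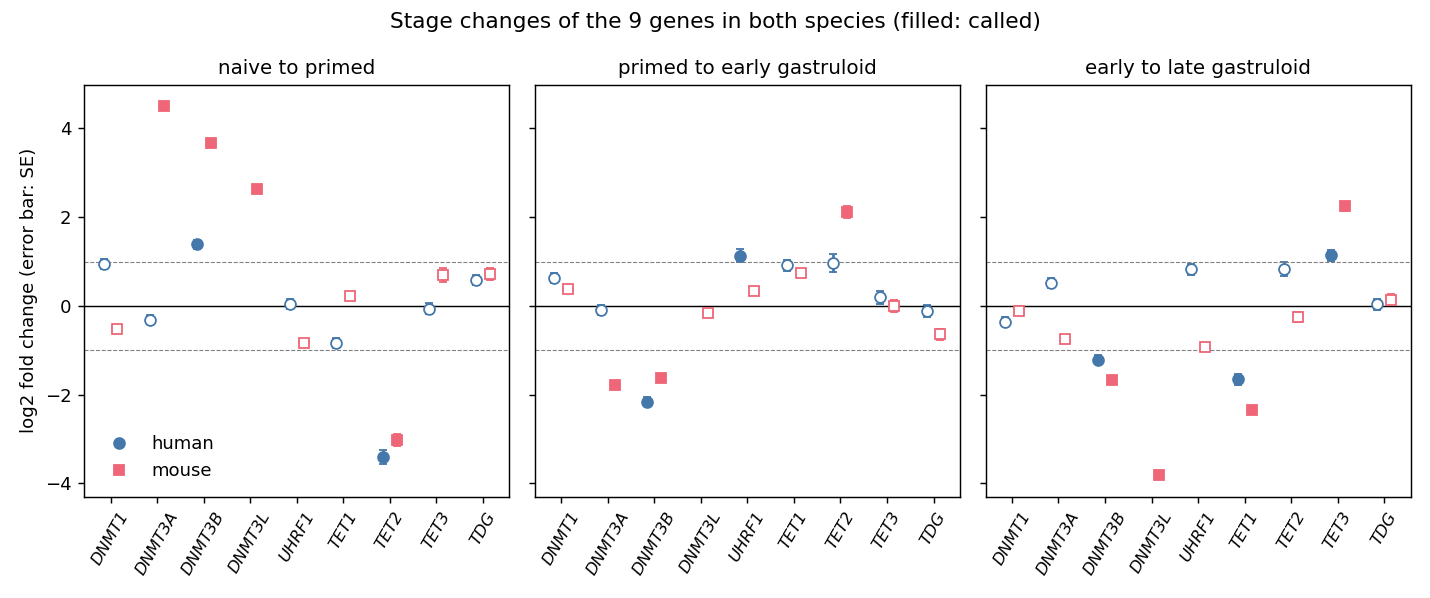
Log2 fold change with its SE for each of the 9 genes in the steps between stages, human as circles and mouse as squares. Filled symbols were called, dashed lines mark a log2 fold change of 1 in either direction, and human DNMT3L is left out where a group had 3 counts or fewer. DNMT3B falls and TET3 rises from early to late gastruloids in both species, while DNMT3A parts most between species in the naive-to-primed step.

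Within each sample, transcript levels per exon length show which paralogue made up a family. DNMT3A made up 16.4% and 17.3% of the TPM of DNMT3A and DNMT3B together in naive H9 ESCs, 5.99% and 5.81% in primed H9 cells, 6.11% and 5.47% in RUES2-GLR ESCs, 22.0% and 19.4% in early RA-gastruloids and 46.2% and 46.9% in late RA-gastruloids. In late RA-gastruloids the 2 transcripts were nearest to equal, and in the other human groups DNMT3B made up over 75% in each sample. In mouse the share of Dnmt3a was 9.48% and 8.54% in naive ESCs, 14.6% and 14.9% in EpiLCs, 13.4% and 13.6% in early gastruloids and 23.5% and 22.4% in late gastruloids. Late gastruloids were again the highest. The sizes of these shares depend on the exon length used, with values under other lengths given in the closing part.

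TET1 made up 80.8% and 80.6% of the TPM of the 3 TET genes in naive H9 ESCs, 83.1% and 82.8% in primed H9 cells, 86.7% and 87.9% in RUES2-GLR ESCs, 90.3% and 90.9% in early RA-gastruloids and 57.8% and 60.9% in late RA-gastruloids. The share of TET3 went from 7.23% and 6.39% in early RA-gastruloids to 32.3% and 29.9% in the late ones. In mouse, Tet1 made up 71.8% and 73.3% in naive ESCs, 90.5% and 88.3% in EpiLCs, 87.8% and 87.4% in early gastruloids and 38.2% and 34.0% in late gastruloids. Late mouse gastruloids were the one group in which Tet3, at 49.9% and 51.1%, was above Tet1. TET2 was 10.6% and 10.4% in naive and 1.56% and 1.94% in primed H9 ESCs, and Tet2 was 24.2% and 21.0% in naive ESCs and 2.35% and 2.99% in EpiLCs. With 2 samples a group an exact test could not have passed 0.05, and these shares were not tested.

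**Figure D4:**
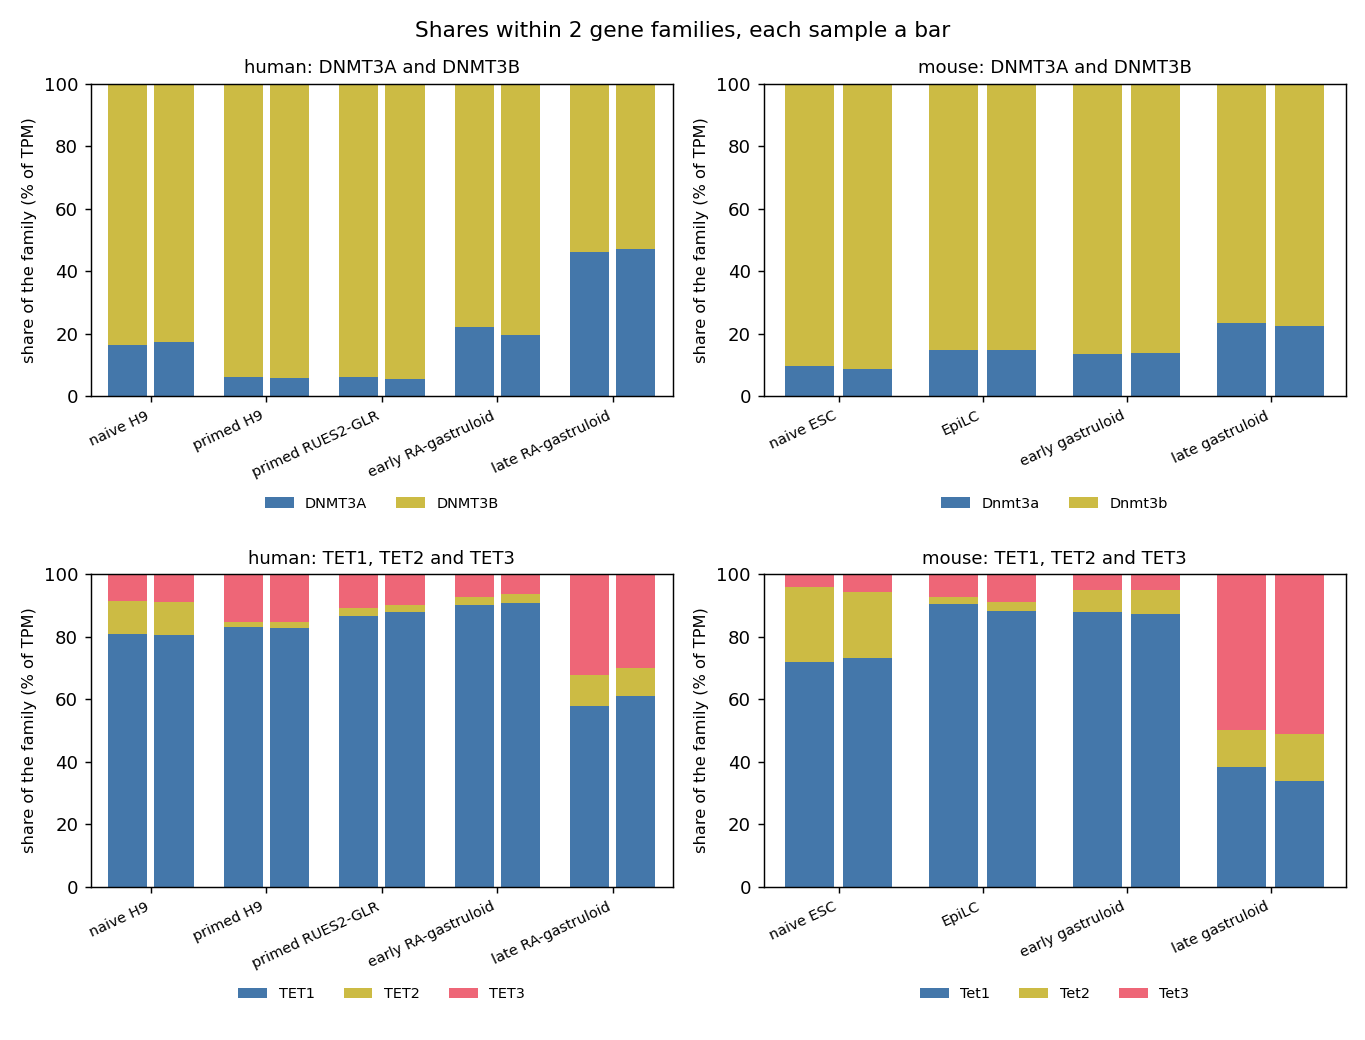
Share of each paralogue in the summed TPM of DNMT3A and DNMT3B (in %) and of TET1, TET2 and TET3 (in %), as stacked bars from 0, 1 bar per sample, by group in human and mouse. The DNMT3A share reaches 46.2% and 46.9% in late RA-gastruloids, and Tet3 reaches 49.9% and 51.1% in late mouse gastruloids.

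The partners of maintenance methylation (10 genes, such as HELLS and CDCA7 of the remodelling complex and PCNA of the replication fork) act beside DNMT1 and UHRF1, and from naive to primed H9 ESCs 5 of 10 were higher, with a median log2 fold change of 0.85, against 25.5% higher and 22.3% lower among all genes with a median of 0.0048. UHRF2, the paralogue of UHRF1, rose from 10.3 to 42.4 CPM (log2 fold change 2.04, SE 0.13, edgeR adjusted p = 5.4e-15), and CDCA7L from 35.6 to 139 CPM (log2 fold change 1.97, SE 0.11, edgeR adjusted p = 2.7e-16). From naive ESCs to EpiLCs 1 of 10 was higher, with a median of -0.26, against 17.7% higher and 12.1% lower among all genes. Between early and late mouse gastruloids, Usp7, a deubiquitinase that binds Dnmt1 and Uhrf1, fell from 617 to 232 CPM (log2 fold change -1.41, SE 0.05, edgeR adjusted p = 1.8e-32), and Hells from 352 to 149.7 CPM (log2 fold change -1.23, SE 0.06, edgeR adjusted p = 1.9e-27). The 15 replication genes had median log2 fold changes between -0.28 and 0.13 in both naive-to-primed steps and both steps from early to late gastruloids, with none called. Their median was -0.58 in RUES2-GLR against H9 ESCs, where DNMT1 was called lower (2 of 15 lower, against 17.1% higher and 12.2% lower among all genes), and 0.44 from RUES2-GLR ESCs to early RA-gastruloids, where UHRF1 rose (2 of 15 higher, against 11.97% higher and 17.6% lower among all genes). In late mouse gastruloids against naive ESCs, where Uhrf1 was lower, it was -0.77 with 5 of 15 lower, against 25.6% higher and 19.2% lower among all genes. The shifts against RUES2-GLR were not particular to replication genes. In RUES2-GLR against H9 ESCs the other lists (markers and germline genes aside) had medians of -0.60 to -0.39, against -0.12 for all genes. To early RA-gastruloids these lists had 0.038 to 0.76, against 0.084 for all genes. Germline genes are left out, since 8 of their 10 tested human genes passed the filter through naive H9 ESCs alone. A link of DNMT1 or UHRF1 to replication was not tested.

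Of the 17 modulators of de novo methylation and imprint protection, 3 were higher and 4 lower in primed than in naive H9 ESCs, against 25.5% higher and 22.3% lower among all genes. DPPA3, which keeps UHRF1 from chromatin, fell from 424 to 0.708 CPM (log2 fold change -9.08, SE 0.18, edgeR adjusted p = 4.9e-26). ZFP57, which protects imprints from erasure, fell from 23.3 to 0.611 CPM (log2 fold change -5.41, SE 0.29, edgeR adjusted p = 5.1e-17). In mouse, 1 was higher and 3 lower in EpiLCs than in naive ESCs, against 17.7% higher and 12.1% lower among all genes, and Prdm14, a repressor of the de novo methyltransferases in naive cells, fell from 129 to 0.337 CPM (log2 fold change -8.26, SE 0.18, edgeR adjusted p = 3.2e-43). The EpiLC level is near that of 3 counts (0.444 and 0.197 CPM in the 2 libraries), so the size of changes against EpiLCs is uncertain. Prdm14 was lowest in EpiLCs, where Dnmt3a, Dnmt3b and Dnmt3l were highest, and was higher again in early gastruloids (27.7 CPM, log2 fold change 6.05 against EpiLCs, edgeR adjusted p = 1.1e-30). In human cells PRDM14 fell from 40.2 to 1.71 CPM (log2 fold change -4.51, SE 0.21, edgeR adjusted p = 1.1e-17) between RUES2-GLR ESCs and early RA-gastruloids, a step in which DNMT3B fell too. A link of PRDM14 to the methyltransferases was not tested in either species.

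Among TET partners and enzymes that make or clear their cofactor, 4 of 11 were higher and 1 lower in primed against naive H9 ESCs, where 25.5% higher and 22.3% lower was the share among all genes. IDH2, which makes the TET cosubstrate 2-oxoglutarate in mitochondria, rose from 20.8 to 112 CPM (log2 fold change 2.43, SE 0.13, edgeR adjusted p = 5.5e-17). CXXC4, which binds TET2 and lowers its protein, rose from early to late gastruloids in both species, from 9.37 to 41.9 CPM (log2 fold change 2.15, SE 0.18, edgeR adjusted p = 9.3e-12) in human and from 1.84 to 41.8 CPM (log2 fold change 4.57, SE 0.18, edgeR adjusted p = 1.8e-30) in mouse. In mouse Ogt, the sugar transferase that binds TET2 and TET3, fell from naive ESCs to EpiLCs, from 210.4 to 56.2 CPM (log2 fold change -1.93, SE 0.07, edgeR adjusted p = 8.6e-32), and was higher in early gastruloids than in EpiLCs at 179 CPM (edgeR adjusted p = 4.7e-29), as Tet2 was.

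The 17 base excision repair genes, which act after TDG, had 2 higher and 3 lower in primed against naive H9 ESCs, against 25.5% higher and 22.3% lower among all genes. In EpiLCs against naive ESCs 2 were higher and 2 lower, against 17.7% higher and 12.1% lower among all genes. The 2 largest changes in each of these steps were of the GADD45 stress-response genes, which are linked to demethylation (GADD45B and GADD45G, Gadd45b and Gadd45g). Glycosylases were called in other comparisons. NTHL1 was lower in primed RUES2-GLR cells against those of H9, from 70.5 to 29.5 CPM (log2 fold change -1.25, SE 0.14, edgeR adjusted p = 6.1e-09), and SMUG1 was higher in late RA-gastruloids than in RUES2-GLR ESCs, from 13.2 to 29.6 CPM (log2 fold change 1.22, SE 0.16, edgeR adjusted p = 5.3e-08). Neil2 fell between early and late mouse gastruloids, from 10.52 to 1.68 CPM (log2 fold change -2.62, SE 0.26, edgeR adjusted p = 9.8e-14). GADD45G fell from 33.8 to 7.88 CPM (log2 fold change -2.07, SE 0.18, edgeR adjusted p = 5.1e-12) in the human step, whereas Gadd45g rose from 0.159 CPM, at the count floor, to 18.1 CPM (edgeR adjusted p = 4.4e-24) in the mouse step. GADD45A rose from 23.2 to 102 CPM (log2 fold change 2.12, SE 0.14, edgeR adjusted p = 4.9e-14) from RUES2-GLR ESCs to early RA-gastruloids and fell again in late RA-gastruloids to 19.8 CPM (log2 fold change -2.37, edgeR adjusted p = 7.0e-16).

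Of the genes from methyl-CpG reader families, not all of which need bind the mark themselves, 1 of 11 was higher and 2 lower in primed against naive H9 ESCs, against 25.5% higher and 22.3% lower among all genes. MBD3, a subunit of the NuRD complex, fell from 359 to 61.9 CPM (log2 fold change -2.53, SE 0.13, edgeR adjusted p = 1.9e-17). From RUES2-GLR ESCs to late RA-gastruloids 5 of 11 were higher, with a median of 1.00, against 17.3% higher and 21.0% lower among all genes, and ZBTB33 (Kaiso) rose from 20.003 to 59.8 CPM (log2 fold change 1.54, SE 0.15, edgeR adjusted p = 1.8e-10). In mouse, Zbtb38 fell from 59.7 to 12.8 CPM (log2 fold change -2.22, SE 0.11, edgeR adjusted p = 3.1e-26) between early and late gastruloids. Among 12 genes of methyl donor supply, late RA-gastruloids had MAT2A, which makes S-adenosylmethionine, at a higher level than early ones, from 63.9 to 175 CPM (log2 fold change 1.46, SE 0.11, edgeR adjusted p = 3.0e-12), and MTHFD2 at a lower level, from 135 to 40.8 CPM (log2 fold change -1.73, SE 0.11, edgeR adjusted p = 2.2e-14). Late mouse gastruloids had 6 of 11 lower than naive ESCs, leaving out Bhmt, which passed the filter through naive ESCs alone, and Shmt2, which works in mitochondrial folate metabolism, fell from 601 to 150.0 CPM (log2 fold change -2.01, SE 0.05, edgeR adjusted p = 7.9e-39), with 25.6% higher and 19.2% lower among all genes.

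Of the 17 germline genes with CpG-dense promoters, many of which are known to be silenced through DNA methylation, 9 were above 1 CPM in both samples in naive H9 ESCs, 1 in primed H9 cells, 1 in RUES2-GLR ESCs, 2 in early and 0 in late RA-gastruloids. Their summed level was 226 to 246 TPM in naive H9 ESCs, 6.19 to 7.02 TPM in primed H9 cells and 1.07 to 2.58 TPM in late RA-gastruloids. BRDT, a testis bromodomain protein, was at 70.3 CPM in naive and 0.0707 CPM in primed H9 ESCs, the latter at the count floor. Human counts of calls are not given for this list, since 10 of 17 passed the filter and 8 of these did so through naive H9 ESCs alone. In mouse 10 of 17 were above 1 CPM in both samples in naive ESCs, 15 in EpiLCs, 13 in early and 8 in late gastruloids, and the summed level was 269 to 270.3 TPM, 536 to 545 TPM, 429 to 437 TPM and 38.7 to 42.2 TPM, highest in EpiLCs and lowest in late gastruloids. Of the 10 mouse genes that reached the level of the filter in naive ESCs themselves, 5 were higher in EpiLCs, against 17.7% higher and 12.1% lower among all genes, and Mael rose from 3.43 to 85.0 CPM (log2 fold change 4.52, SE 0.15, edgeR adjusted p = 1.4e-34). Of the 8 that reached it in late gastruloids, 7 were lower there than in early gastruloids, against 20.1% higher and 19.1% lower among all genes. Hormad1, a meiotic chromosome protein, fell from 77.5 to 2.98 CPM (log2 fold change -4.71, SE 0.14, edgeR adjusted p = 1.7e-36). Dnmt3a, Dnmt3b and Dnmt3l were highest in the same EpiLC samples in which the summed level of the germline genes was highest.

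For each member, the 2 genes with the most similar pattern were found over 9104 genes, by Pearson r of log2 CPM over the 18 samples centred within species. These samples share groups, depth and preparation, so the values are a description. The nearest for the writers were SPINDOC and ASAP3 to DNMT1 (r = 0.917 and 0.915), FLYWCH2 and CYFIP2 to DNMT3A (r = 0.963 and 0.918), FUT1 and PIK3CD to DNMT3B (r = 0.976 and 0.962), SLC25A16 and SENP2 to DNMT3L (r = 0.985 and 0.981) and WDTC1 and PAN2 to UHRF1 (r = 0.957 and 0.941). For the erasers they were ENO1 and CSTF1 to TET1 (r = 0.919 and 0.887), TBX3 and IL6ST to TET2 (r = 0.965 and 0.957), RGL1 and SMARCC2 to TET3 (r = 0.966 and 0.951) and SIRT5 and GATAD1 to TDG (r = 0.928 and 0.901). For DNMT3A the likeness rests more on the mouse samples, with r = 0.798 and 0.624 over the 10 human samples against 0.994 and 0.984 over the 8 mouse samples. For DNMT3L the human values (r = 0.993 and 0.984) rest on the 2 naive H9 samples against human samples at the count floor. They say little beyond a higher level in naive H9 ESCs, and r in mouse was 0.895 and 0.958. For the other members r was 0.878 to 0.995 in human and 0.797 to 0.992 in mouse. The most similar gene to TET2, TBX3, is a factor of naive pluripotency and is itself among the mouse naive markers used above.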

How the data were processed

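RNA-seq counts per gene were analysed for 18 samples (10 human, 8 mouse). The deposited values are raw read counts per gene that the authors made with bcl2fastq 2.20, FastQC, Trimmomatic 0.39, STAR and featureCounts with default parameters (no strand, reads with several map positions not counted) on GRCh38 and GRCm39. The annotation release is not given in the sources used here. Libraries came from a poly(A) kit and were read in different read layouts, which the sources do not tie to samples. Symbols came from GENCODE 44, which matched 44876 of 44910 human IDs, and GENCODE M39, which matched 29486 of 29720 mouse IDs. No column of sample values was left unmapped.

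Counts were tested as deposited with edgeR 4.0.16 in R 4.3.3: filterByExpr, TMM, glmQLFit and glmQLFTest, in 1 fit of all 10 human samples and 1 of all 8 mouse samples with a coefficient per group, and in 1 fit of 18 samples over 14007 of 15371 genes matched by symbol for differences between species. Adjusted p is Benjamini-Hochberg over all genes tested, a call also needs an absolute log2 fold change above 1, and the SE is the fold change divided by the square root of F. CPM is relative to the TMM effective library size. TPM uses the summed exon length in the files. DESeq2 1.42.0, other scalings, no filter, a fit of only the groups compared, a replicate block and leaving out each replicate were alternatives, and leaving out mitochondrial genes and using the canonical transcript length were added after seeing the data. On simulated counts, 200 of 200 changed genes were recovered for primed against naive H9 ESCs (1 false call, 17052 genes). For EpiLCs against naive ESCs 197 of 200 were recovered (3 false calls, 14328 genes). Recovery with as large a share of genes changed as was called in the data (47.8% and 29.8%) was not tested. A count of 3 was taken as the floor, and intervals cover counting error only.

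The members and gene lists were chosen with earlier results of these data known. Named are all 9 members, the 2 genes most similar to each (a group mean of at least 10 CPM in each species, prior count 2) and, from each list, at most the 2 called genes with the largest fold change in a comparison. A list is described by counts and its median, and the germline list by its levels and by the genes that pass the filter in the lower group, since most of its human genes passed through naive H9 ESCs alone. Promoter windows came from RefSeq on GRCh38.p14.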

Additional observations from a re-analysis of the deposited data

Results flagged for a closer look

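In 10 cases the change of a member between stages differed between human and mouse by a test of the difference itself, given as the human minus the mouse log2 fold change. In the step from naive to primed cells, DNMT1 differed by 1.36 (human 0.87, mouse -0.49, edgeR adjusted p = 2.7e-11), DNMT3A by -4.91 (human -0.38, mouse 4.52, edgeR adjusted p = 1.3e-27), DNMT3B by -2.40 (human 1.31, mouse 3.71, edgeR adjusted p = 2.6e-20) and TET1 by -1.15 (human -0.90, mouse 0.25, edgeR adjusted p = 9.2e-08). DNMT3L differed by a fitted -18.9, a value that rests on a human count of 1 in primed H9 ESCs, in a gene with counts past the filter in no other human group than naive H9 ESCs, and is no bound. In the step to early gastruloids, DNMT3A differed by 1.57 (human -0.19, mouse -1.76, edgeR adjusted p = 1.6e-13) and TET2 by -1.26 (human 0.88, mouse 2.14, edgeR adjusted p = 0.0003). From early to late gastruloids, DNMT3A differed by 1.41 (human 0.54, mouse -0.86, edgeR adjusted p = 1.6e-12), UHRF1 by 1.89 (human 0.84, mouse -1.05, edgeR adjusted p = 1.1e-14) and TET2 by 1.23 (human 0.86, mouse -0.37, edgeR adjusted p = 9.2e-06). The human naive cells are H9 and the human gastruloids RUES2-GLR, the mouse cells are all E14Tg2a, and media and times differ between species, so species cannot be told apart from line and culture. The groups hold 2 samples each, too few to look for a single sample far from the others.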

How the results depend on the processing

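Of 1407 alternative values over 111 tests of single members, 1304 kept direction and side of the threshold, 10 lost a call, 66 gained one and 27 changed sign, none of them a called member. Of the gains, 45 came from calling by the adjusted p alone, which drops the fold limit on the same fit and can only add calls. Called by the adjusted p alone, members numbered 7 (primed over naive H9), 5 (RUES2-GLR over H9), 5 (early RA-gastruloids over RUES2-GLR), 7 (late over early RA-gastruloids) and 7 (late over RUES2-GLR) in human. In mouse they numbered 9 (EpiLCs over naive), 8 (early over naive), 8 (early over EpiLCs) and 7 (late over early), and for the species differences 4 (to early) and 6 (early to late). For RUES2-GLR over H9, 0 members were called with DESeq2, DESeq2 size factors, upper quartile scaling, no filter, only the groups compared or mitochondrial genes left out, where 5 passed the adjusted p in edgeR, and DNMT1 was then at -0.88, -0.85, -0.81, -0.99, -0.81 and -0.85.

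Leaving out 1 replicate moved the count for RUES2-GLR over H9 between 0 and 1 (0 without either RUES2-GLR replicate), for mouse early over naive between 3 and 5 (5 without naive ESC replicate 2) and for the species difference to early gastruloids between 1 and 2 (1 without RUES2-GLR replicate 1). Signs changed for UHRF1, primed over naive H9 (0.043), to -0.067 with DESeq2, -0.071 with its size factors and -0.012 without mitochondrial genes, and between -0.043 and 0.071 when leaving out replicates. Tet3, early gastruloids over EpiLCs (-0.0034), was 0.010 with DESeq2, 0.032 with no filter, 0.022 with the replicate block and -0.19 to 0.42 when leaving out replicates. TDG, species difference from early to late, was -0.049 with DESeq2, -0.056 with its size factors, -0.010 without mitochondrial genes and -0.069 to 0.22 when leaving out replicates. Leaving out replicates moved TDG between -0.065 and 0.15 (late over early RA-gastruloids) and -0.23 and 0.041 (late over RUES2-GLR), and Tdg between -0.052 and 0.29 (early over naive). Among species differences it moved TET2 between -0.70 and 0.040 (naive to primed), DNMT1 between -0.054 and 0.27, TET1 between -0.14 and 0.22 and TET3 between -0.37 and 0.31 (to early), and DNMT1 between -0.25 and 0.060 (early to late). The cause was not tested. Replicate numbers do not pair the samples (correlations of deviations between stages from -0.112 to 0.068), and the replicate block changed no member's call.

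Shares not divided by exon length were, for DNMT3A of DNMT3A and DNMT3B, 28.9% (naive H9), 11.2% (primed H9), 10.96% (RUES2-GLR), 34.4% (early) and 63.6% (late), and in mouse 24.4% (naive), 36.1% (EpiLCs), 33.7% (early) and 49.3% (late). With the canonical transcript length they were 15.8% (naive H9), 5.47% (primed H9) and 44.6% (late), and in mouse 12.3%, 19.8%, 18.2% and 29.8%. For TET1 of the TET genes the values without length were 73.0%, 77.9%, 83.0%, 87.0% and 50.5% in the 5 human groups, and 70.8% (naive) and 86.7% (early) in mouse. With the canonical length they were 74.6%, 81.0%, 85.3%, 88.6% and 54.4%, and in mouse 60.5%, 78.6%, 78.4% and 19.5%. The length used sets these shares. With 2 replicates a group and 3681739 counts in the shallowest library, low members such as TET2 in primed cells carry the widest errors.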
